A study of Arabidopsis thaliana with 9 samples.

Results

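The 8 genes described here encode the proteins that carry copper from the cytosol to the ethylene receptors, the cell exterior and the chloroplast, and the plastocyanins that use it there. They were taken by locus identifier from a table of 38202 gene rows. All 8 of 8 identifiers were found, and all 8 had enough counts to be among the 19889 genes tested. They are the chaperones CCH (AT3G56240) and ATX1 (AT1G66240), the secretory pathway pumps RAN1 (AT5G44790) and HMA5 (AT1G63440), the chloroplast pumps PAA1 (AT4G33520) and PAA2 (AT5G21930), and the plastocyanins PETE1 (AT1G76100) and PETE2 (AT1G20340).

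Copper enters plant cells as the monovalent ion and is handed from protein to protein, because the free ion is toxic. Small chaperones pass it to copper-transporting ATPases, pumps that move metal across membranes at the cost of ATP. RAN1 loads the endoplasmic reticulum and Golgi lumen, where ethylene receptors take up the copper ion with which they bind ethylene. PAA1 brings copper into the chloroplast and PAA2 moves it on into the thylakoid, where plastocyanin carries electrons from the cytochrome b6f complex to photosystem I. The monovalent silver ion resembles the monovalent copper ion, and silver is a classical blocker of ethylene perception.

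Transcript levels were measured by RNA sequencing after depletion of ribosomal RNA in leaves of Arabidopsis thaliana, ecotype Columbia, grown for 6 days in MS medium, a common medium for plant culture. The 9 libraries formed 3 groups of 3, named CK, Ag+ (silver ions) and AgNPs (silver nanoparticles). CK was read as the untreated control because nothing else in the labels is named as one, and neither a dose nor a length of exposure is given. Libraries were made from pooled RNA, and whether those of 1 group go back to separate cultures is not stated, so p-values measure only the spread between these libraries, which may be technical.

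Total counts ran from 16884010 to 19876151 per library. The 6 leaf marker genes summed to between 22060 and 37772 CPM (counts scaled by library size) and were detected in every library, while 18 root markers summed to between 15.9 and 90.8 CPM, highest in AgNPs 1. Heat shock genes varied within groups: 17 of them summed to 217, 199 and 1324 CPM in the CK libraries in order of replicate number. The Ag+ libraries held 158, 123 and 382 CPM of them, and the AgNPs libraries 459, 1506 and 1972.

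Each member has a close relative among the other members, and short stretches of their coding sequences show what they share and where reads can tell them apart. The sequences come from RefSeq TAIR10.1, and the counts were joined to it by locus identifier only. In the chaperones, the codons of the 2 cysteines that hold the copper ion are in capitals, and the stretches begin at coding base 22 of CCH and coding base 112 of ATX1.
CCH: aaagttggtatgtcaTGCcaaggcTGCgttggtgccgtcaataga
ATX1: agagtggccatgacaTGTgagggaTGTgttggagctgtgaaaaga
In the plastocyanins, the stretch around the copper-binding cysteine and histidine near the end of the protein is shown from coding base 556 of PETE1 and 436 of PETE2, and capitals mark the 10 of 60 bases that differ.
PETE1: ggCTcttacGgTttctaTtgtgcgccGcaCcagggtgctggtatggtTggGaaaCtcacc
PETE2: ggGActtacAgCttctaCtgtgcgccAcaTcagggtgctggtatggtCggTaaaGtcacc
The coding sequences of CCH and ATX1 were 80.1% identical over 231 aligned bases, and those of PETE1 and PETE2 75% over 503. The longest unbroken identical run was 13 bases in the chaperones and 17 in the plastocyanins. RAN1 and HMA5 were 64.1% identical, with a longest run of 17 bases, and PAA1 and PAA2 60.4%, with a longest run of 12.

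Of the plastocyanins, PETE2 had the highest level of the 8 genes and passed the test in no comparison, and PETE1 was the 1 gene of the 8 that was called. PETE2, the major plastocyanin of Arabidopsis leaves, had 2916, 3372 and 2392 CPM in the CK libraries. It had 3626, 3728 and 3485 CPM in Ag+ and 3518, 3055 and 2507 in AgNPs. The 3 Ag+ libraries all lay above the 3 CK libraries, while AgNPs and CK overlapped. The mean ± SD (n = 3 in each group) was 2893 ± 490.4 CPM in CK, 3613 ± 122 in Ag+ and 3027 ± 506 in AgNPs. With edgeR's quasi-likelihood test, adjusted over all genes tested, the 1.25-fold difference between Ag+ and CK did not pass (log2 0.32, 95% interval -0.06 to 0.70, adjusted p = 0.347), nor did that between AgNPs and CK (log2 0.07, adjusted p = 0.902).

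PETE1, the minor plastocyanin, had 75.0, 64.9 and 52.3 CPM in CK, 181, 204 and 144 in Ag+, and 156, 106 and 100.4 in AgNPs. Every silver library was above every CK library, and the 2 silver groups overlapped. PETE1 rose 2.75-fold in Ag+ (95% interval 1.99 to 3.81; log2 1.46 ± 0.21 SE; edgeR adjusted p = 0.00492; means 176 ± 30.7 against 64.1 ± 11.4 CPM, SD, n = 3). It rose 1.88-fold in AgNPs (95% interval 1.37 to 2.60; log2 0.91 ± 0.21 SE; edgeR adjusted p = 0.0445; mean 121 ± 30.3 CPM, SD, n = 3). The difference of AgNPs from Ag+ did not pass (log2 -0.55, 95% interval -1.01 to -0.09, edgeR adjusted p = 0.259). In bulk tissue, fewer cells of a type and less RNA per cell cannot be told apart, here and in all that follows.

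The difference between PETE1 in Ag+ and CK was called without any single library in turn, at edgeR adjusted p between 0.00163 and 0.0246. That between AgNPs and CK was called in 1 of 9 such fits, the one without Ag+ 3, and missed in the others, with log2 between 0.69 and 1.04 and edgeR adjusted p between 0.0489 and 0.148 over the 9. A fit of the 6 libraries of these groups alone also missed it (log2 0.91, adjusted p = 0.0849), as did one without CK 3 and AgNPs 1 together (log2 0.56, adjusted p = 0.0747). In each group PETE1 was lowest in the library with the highest heat shock sum, CK 3, Ag+ 3 and AgNPs 3. With the heat shock sum as a covariate the log2 difference was 1.24 for Ag+ against CK (edgeR adjusted p = 0.000433) and 1.24 for AgNPs against CK (adjusted p = 0.000976). For AgNPs against Ag+ it was 0.002 (edgeR adjusted p = 0.997). The heat shock sums of AgNPs and Ag+ did not overlap, so that last value cannot separate them from the silver form.

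Among the 8 genes, PETE1 alone passed the test in Ag+ against CK, 1 of 8, beside 5.57% of all genes tested (3.52% called higher, 2.05% called lower). It alone passed in AgNPs against CK, again 1 of 8, beside 3.32% of all genes (2.23% higher, 1.09% lower), and 0 of 8 passed in AgNPs against Ag+, beside 0.684% (0.508% higher, 0.176% lower). For that last count, 2 of 8 had an unadjusted p under 0.05, beside 2947 of all 19889 genes tested. DESeq2 called 1 of the 8 there and limma-voom 0, beside 845 and 50 of all genes. The 6 members other than PAA2 and PETE1 lay between log2 -0.26 (PETE2) and 0.25 (HMA5) in that comparison, at edgeR adjusted p between 0.506 and 0.992. Groups did not overlap for 3 of the 8 in Ag+ against CK (PAA2, PETE1 and PETE2), beside 23.3% of all genes. They did not overlap for 1 of 8 in AgNPs against CK (PETE1), beside 22.6%, and for 1 of 8 in AgNPs against Ag+ (PAA2), beside 22.1%. The first 2 comparisons share their CK libraries.

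**Figure D1:**
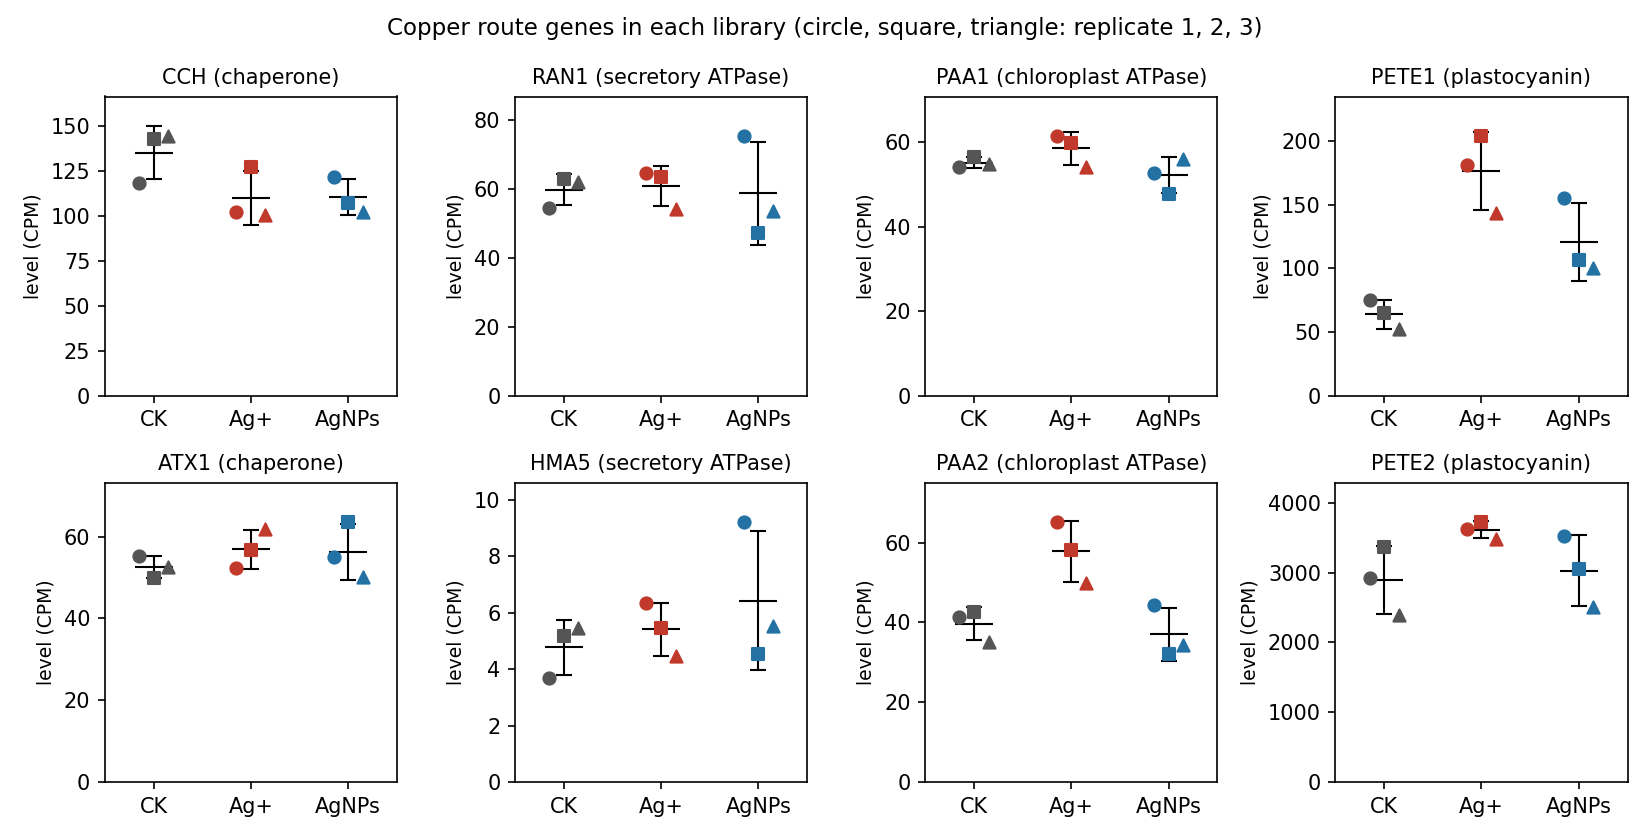
Level of each of the 8 genes in every library, in CPM, by group (CK, Ag+, AgNPs); points are libraries, and the lines mark the group mean and its SD (n = 3). The 3 Ag+ points of PETE1 (144 to 204 CPM) and the 3 AgNPs points (100.4 to 156) lie above all CK points (52.3 to 75.0), while the points of ATX1, RAN1 and HMA5 overlap between groups.

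**Figure D2:**
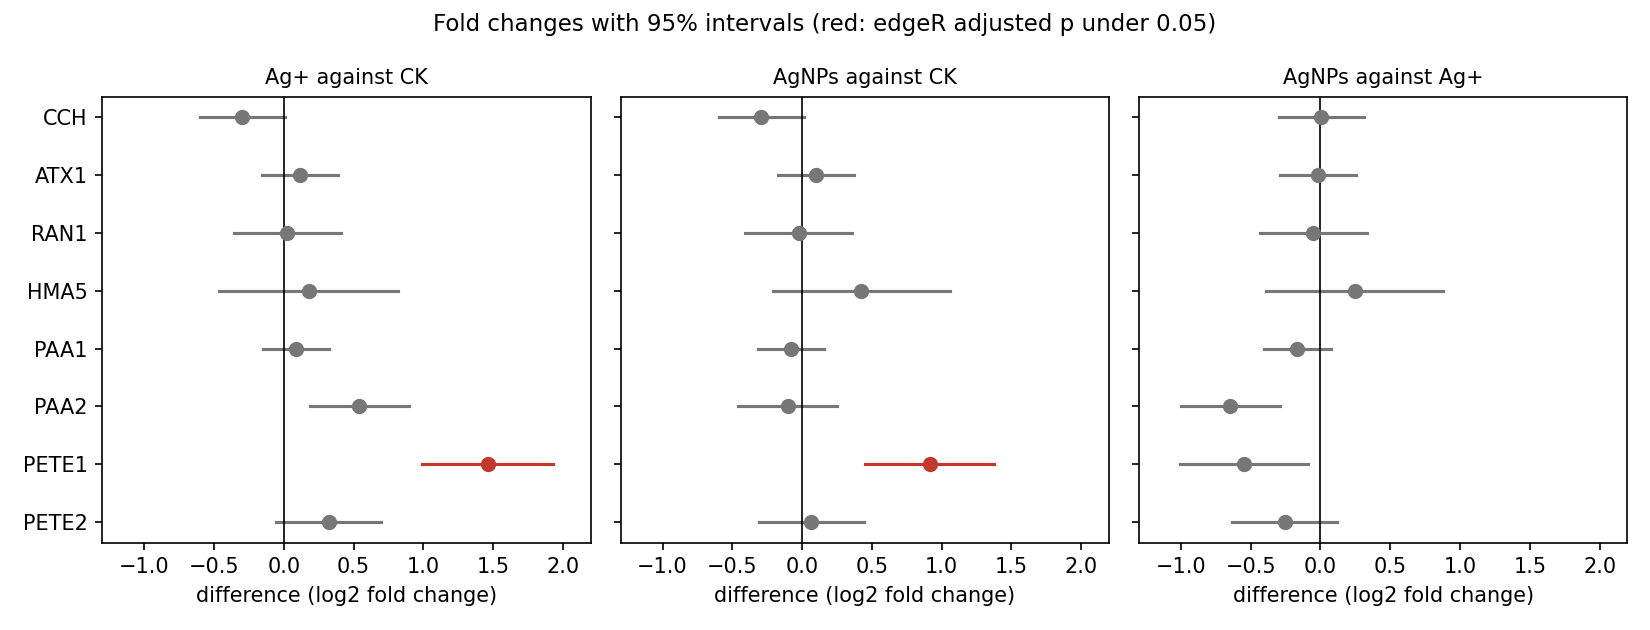
Log2 fold change of the 8 genes in the 3 comparisons, with 95% intervals from the edgeR fit. For Ag+ against CK the intervals of PETE1 (log2 1.46) and PAA2 (0.54) exclude 0, and only that of PETE1 belongs to a gene called after adjustment.

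The balance between the 2 plastocyanins shifted. PETE1 made up 2.51%, 1.89% and 2.14% of the counts of both plastocyanins in CK, 4.76%, 5.20% and 3.96% in Ag+, and 4.24%, 3.36% and 3.85% in AgNPs. All 6 silver libraries lay above all 3 CK libraries. The share averaged 2.18 ± 0.312% in CK, 4.64 ± 0.630% in Ag+ and 3.82 ± 0.438% in AgNPs (SD, n = 3). An exact permutation test over all 1680 assignments of the libraries to 3 groups gave p = 0.00714 (smallest possible 0.00357), 0.0286 after adjustment over the 4 shares computed. The adjusted value was 0.0571 without Ag+ 1 or without Ag+ 2, and 0.111 when libraries were exchanged only within replicate numbers, where the exact permutation p of 0.0278 is the smallest possible. Taken 2 groups at a time, the two-sided exact permutation p was 0.1 for each silver group against CK and 0.2 between them, and 0.1 is the smallest 3 libraries against 3 can give.

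**Figure D3:**
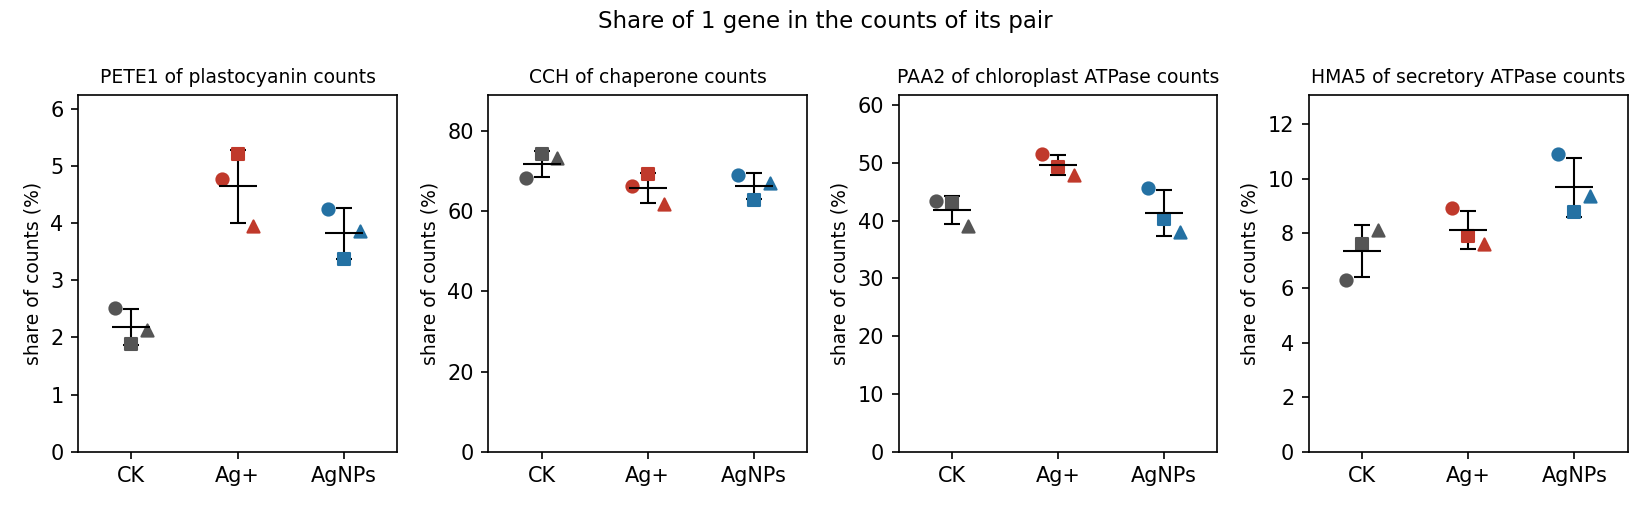
Share of 1 member in the summed counts of its pair, in percent, for each library and group, with the group mean and SD (n = 3). The PETE1 share lies between 1.89% and 2.51% in CK and between 3.36% and 5.20% in the 6 silver libraries; the PAA2 share is 48.0% to 51.4% in Ag+.

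The 250 bases before the annotated start of each plastocyanin gene are shown because the 2 genes, which encode like proteins, had unlike levels and unlike responses. That of PETE1 is chr1:28554931-28555180 on the minus strand of TAIR10.1, upstream of a gene at chr1:28553883-28554930.
PETE1 promoter: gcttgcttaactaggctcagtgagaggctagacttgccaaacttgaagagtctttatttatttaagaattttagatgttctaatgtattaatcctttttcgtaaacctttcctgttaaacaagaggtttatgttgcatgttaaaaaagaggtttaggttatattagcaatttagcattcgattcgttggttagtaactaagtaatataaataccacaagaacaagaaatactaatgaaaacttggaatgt
That of PETE2 is chr1:7043393-7043642, also on the minus strand, and capitals mark motif matches.
PETE2 promoter: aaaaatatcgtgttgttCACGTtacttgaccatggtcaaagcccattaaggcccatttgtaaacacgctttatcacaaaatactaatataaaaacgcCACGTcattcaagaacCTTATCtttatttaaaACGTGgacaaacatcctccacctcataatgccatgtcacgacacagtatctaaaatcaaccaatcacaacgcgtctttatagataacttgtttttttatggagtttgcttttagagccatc
Both strands were searched for ACGTG, the core of the G-box family of light and abscisic acid response elements, GATAAG, the I-box found in many photosynthesis genes, and GTAC, the core bound by the copper-responsive regulator SPL7. The PETE2 window held 3 matches of ACGTG, which begin 233, 153 and 121 bases before the start, and 1 of GATAAG, 137 bases before it. The PETE1 window held none of the 3 motifs, which says only that these letters are not in this window. GTAC was in the windows of 3 of the 8 genes (CCH, RAN1 and PAA1) and in 34.3% of 27443 promoters of the same length. ACGTG was in 2 of 8 (PETE2, and PAA2 with 1 palindrome matched on both strands) and in 22.9% of promoters, and GATAAG in 1 of 8 and 12.3%. These matches are descriptions of sequence, not of bound sites.

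Over the 9 libraries, the genes whose log2 CPM followed PETE1 most closely, among 11729 genes with a mean of at least 10 CPM, were AT1G51400, a photosystem II 5 kD protein (Pearson r = 0.995), AT1G74470, a pyridine nucleotide-disulfide oxidoreductase family protein (0.992), and AT1G54820, a protein kinase superfamily member (0.99). PETE1 and PETE2 had r = 0.75. The points are the same libraries for every gene and share depth and scaling.

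With group as the only term, neither chloroplast pump passed the edgeR test in any comparison. PAA1, which delivers copper across the chloroplast envelope, had 54.0, 56.6 and 54.7 CPM in CK, 61.5, 59.8 and 54.2 in Ag+, and 52.7, 47.7 and 56.1 in AgNPs. All 3 groups overlapped. The log2 difference was 0.09 for Ag+ against CK (95% interval -0.15 to 0.32, edgeR adjusted p = 0.736) and -0.08 for AgNPs against CK (adjusted p = 0.79). The annotation gives 4 transcripts of PAA1, which the gene-level counts do not separate.

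PAA2, which moves copper into the thylakoid lumen, had 41.4, 42.6 and 34.99 CPM in CK, 65.2, 58.2 and 49.9 in Ag+, and 44.4, 32.1 and 34.3 in AgNPs. The 3 Ag+ libraries were above all others, and CK and AgNPs overlapped. The 1.46-fold difference of Ag+ from CK did not pass (log2 0.54 ± 0.16 SE, 95% interval 0.19 to 0.89, edgeR adjusted p = 0.0831), nor did the 1.56-fold lower level in AgNPs than in Ag+ (log2 -0.65, 95% interval -0.998 to -0.29, adjusted p = 0.102) or that of AgNPs against CK (log2 -0.10, adjusted p = 0.82). With the replicate number as a block, the difference of Ag+ from CK was called (edgeR adjusted p = 0.0444 in all 9 libraries and 0.0277 in the 6 compared, the latter fit added after seeing the data), which made 2 of 8 genes called there. DESeq2 also called it (0.0408), and DESeq2 called AgNPs against Ag+ (log2 -0.63, adjusted p = 0.018).

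Leaving out AgNPs 1 also brought both PAA2 differences past the threshold, at edgeR adjusted p = 0.0426 for Ag+ against CK and 0.0324 (log2 -0.80) for AgNPs against Ag+. With the heat shock sum as a covariate they were log2 0.40 (edgeR adjusted p = 0.0686) and -0.29 (adjusted p = 0.382). The second value has the limit given for PETE1, heat shock sums that did not overlap between the silver groups. PAA2 made up 43.4%, 43.0% and 39.0% of the counts of both chloroplast pumps in CK, 51.4%, 49.3% and 48.0% in Ag+, and 45.7%, 40.2% and 38.0% in AgNPs. The Ag+ shares did not overlap the others, and the exact permutation test over the 3 groups gave p = 0.0429, 0.0571 after adjustment over the 4 shares. The adjusted exact p was 0.0286 without AgNPs 1 and 0.111 when libraries were exchanged only within replicate numbers.

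PAA2 overlaps 157 bases of AT5G21940, which lies on the other strand, and the strand setting of the counting is not given in the sources used here. That neighbour was lower in AgNPs than in Ag+ (log2 -1.02 ± 0.17 SE, edgeR adjusted p = 0.0362) and not called against CK in either silver group (log2 0.40 in Ag+ and -0.63 in AgNPs, adjusted p = 0.223 and 0.0783). AT5G21940 had 965 to 2235 counts per library, and PAA2 had 644 to 1047. How many reads of that neighbour were counted for PAA2 was not tested. The other 7 members overlap no annotated gene.

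The chaperones did not pass the test in any comparison. CCH, whose protein extends beyond the chaperone domain it shares with ATX1 and which is known to rise in senescing leaves, had 118, 143 and 145 CPM in CK, 102, 127 and 100.4 in Ag+, and 122, 107 and 102 in AgNPs. Its silver means lay below that of CK, with overlap between the groups. The log2 difference was -0.30 in Ag+ (95% interval -0.60 to 0.01, edgeR adjusted p = 0.274) and -0.29 in AgNPs (adjusted p = 0.317). ATX1 had 55.2, 49.9 and 52.7 CPM in CK, 52.3, 56.7 and 61.9 in Ag+, and 55.0, 63.7 and 50.2 in AgNPs, with overlapping groups. Its log2 difference was 0.12 in Ag+ (95% interval -0.16 to 0.39, edgeR adjusted p = 0.686) and 0.10 in AgNPs (adjusted p = 0.771). CCH took 71.8 ± 3.24% of the counts of both chaperones in CK, 65.7 ± 3.68% in Ag+ and 66.2 ± 3.18% in AgNPs (exact permutation p = 0.164, n = 3 in each group, also 0.164 after adjustment over the 4 shares).

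RAN1, which supplies the ethylene receptors, had 54.5, 62.8 and 61.9 CPM in CK, 64.6, 63.6 and 54.1 in Ag+, and 75.5, 47.1 and 53.6 in AgNPs. The groups overlapped, and the highest and lowest values of all 9 were both in AgNPs. The log2 difference was 0.02 in Ag+ (95% interval -0.36 to 0.41, edgeR adjusted p = 0.963) and -0.03 in AgNPs (adjusted p = 0.963). The interval gives the differences from CK with which these Ag+ libraries are compatible, and no smallest detectable difference was computed.

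HMA5, a copper pump known mainly from roots, where it exports copper, was the lowest of the 8, with 3.67, 5.18 and 5.47 CPM in CK, 6.33, 5.44 and 4.46 in Ag+, and 9.22, 4.53 and 5.54 in AgNPs. These values rest on 74 to 150 counts. AgNPs 1 was the highest library, and the groups overlapped. No comparison passed (log2 0.18 in Ag+ and 0.43 in AgNPs, edgeR adjusted p = 0.803 and 0.517). In AgNPs 1 the 18 root markers summed to 90.8 CPM, against 15.9 to 33.7 in the other 8 libraries; their part in the HMA5 value was not tested. HMA5 made up 7.35 ± 0.938% of the counts of both secretory pumps in CK, 8.14 ± 0.694% in Ag+ and 9.68 ± 1.09% in AgNPs (exact permutation p = 0.0393, n = 3 in each group, 0.0571 after adjustment over the 4 shares). Without AgNPs 1 the exact p was 0.129 (0.168 adjusted), and without CK 1 the difference of Ag+ from CK was 0.265 percentage points in place of 0.787 (adjusted exact p = 0.114).

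Per kilobase of annotated exon, the order of the group means in CK was PETE2 at 2148 CPM per kb, CCH at 103 ± 11.3, ATX1 at 63.8 ± 3.23, PETE1 at 61.1 ± 10.9, RAN1 at 16.4 ± 1.24, PAA1 at 13.96 ± 0.336, PAA2 at 11.8 ± 1.22 and HMA5 at 1.497 ± 0.303 (SD, n = 3). ATX1 and PETE1 overlapped, and no other neighbours in this order did. In Ag+, PETE1 at 168 CPM per kb stood above CCH at 83.6 and ATX1 at 69.1, and PAA2 at 17.2 stood beside RAN1 at 16.7 and PAA1 at 14.8. In AgNPs, PETE1 was at 115, CCH at 83.9, ATX1 at 68.2, RAN1 at 16.2 and PAA1 at 13.2, and PAA2 was again below both of these pumps.

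**Figure D4:**
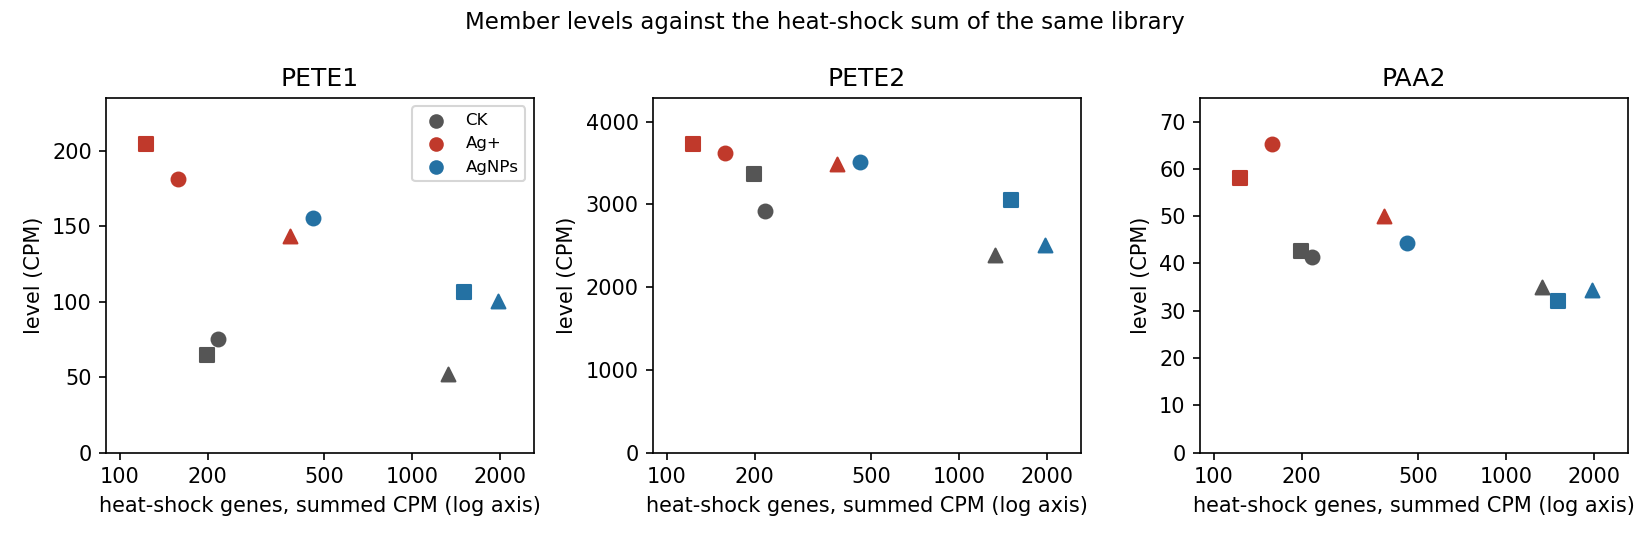
Level of PETE1, PETE2 and PAA2 in CPM against the summed CPM of 17 heat shock genes (log axis) in the 9 libraries, by group. CK 3 (1324 CPM of heat shock genes), Ag+ 3 (382) and AgNPs 3 (1972) hold the lowest PETE1 and PETE2 values of their groups.

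Genes upstream and downstream of the 8 on the copper route were followed in lists of textbook members, chosen with earlier results of these data known. Counts are of genes called by edgeR. Over all genes tested, edgeR called 5.57% in Ag+ (3.52% higher, 2.05% lower) and 3.32% in AgNPs (2.23% higher, 1.09% lower) against CK. Between AgNPs and Ag+ it called 0.684%. Of 7 tested copper uptake genes, 1 fell in Ag+ (median log2 -0.02) and 1 in AgNPs (-0.11). It was COPT2, a plasma membrane copper transporter, at log2 -2.16 (adjusted p = 0.00355) and -1.24 (0.0408). COPT2 had a low level, with means of 3.96 CPM in CK, 0.88 in Ag+ and 1.68 in AgNPs. Its call in AgNPs held without Ag+ 1 or AgNPs 1 and was lost without any other single library. In contrast, 3 of 4 genes of copper delivery to superoxide dismutases rose in both silver groups (median log2 2.22 and 1.40, beside -0.01 and -0.003 over all genes): the chaperone CCS and the copper/zinc superoxide dismutases CSD1 and CSD2. All 3 were lower in AgNPs than in Ag+, CCS by log2 -0.89 (adjusted p = 0.0479), CSD1 by -0.75 (0.0475) and CSD2 by -0.95 (0.035). These last calls were lost for all 3 genes without Ag+ 1, Ag+ 2, Ag+ 3, AgNPs 2 or AgNPs 3, each left out alone. In each of those fits edgeR called 0 of all genes between AgNPs and Ag+, so the loss is not particular to these 3. The calls were also lost with the heat shock covariate, where 335 genes were called, and 2 held without CK 2. Limma-voom called 1 of the 3.

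On the branch served by RAN1, 3 of 5 ethylene receptor genes fell in each silver group (median log2 -1.65 in Ag+ and -1.60 in AgNPs). ETR2 fell by log2 -3.22 and -3.39, ERS2 by -1.92 and -2.36, and ERS1 by -1.65 and -1.60. In Ag+ the count was 2 without Ag+ 1 or without Ag+ 2. Of 12 secreted copper proteins, 3 rose and 1 fell in Ag+ (median log2 0.14): the laccases LAC4 (1.79) and LAC17 (1.18) and the plantacyanin ARPN (1.76) rose, and the laccase LAC8 fell (-1.20). Without CK 1, CK 2 or Ag+ 2, each left out alone, 2 of the 12 were called. In AgNPs, 2 of the 12 rose (median log2 0.78), LAC4 (1.49) and LAC17 (0.97). AgNPs 1 stood apart there: the 13 listed genes summed to 282 CPM in it, against 143 and 147 in AgNPs 2 and AgNPs 3 and 136 to 177 in CK, and root markers were highest in the same library. The part of that library in the list median was not tested. None of 5 mitochondrial copper delivery genes was called in either group (median log2 0.04 in both), nor any of 3 tested zinc-type ATPases, relatives of the copper pumps (0.31 and 0.15). At an unadjusted p under 0.05, edgeR found 1 and 0 of the mitochondrial and 1 and 2 of the zinc-type genes in Ag+ and AgNPs. Of all 19889 genes tested, 3827 and 3374 had such a p. Limma-voom called none of these mitochondrial and zinc-type genes. DESeq2 called 1 zinc-type gene in Ag+, beside 1885 of all genes.

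Around plastocyanin, 14 genes were followed, of the cytochrome b6f complex, photosystem I, ferredoxin and its reductase, and related electron carriers. In Ag+, where 3.52% of all genes tested were called higher, 4 of these 14 rose (median log2 0.40). They were the photosystem I subunits PSAD-2 (log2 1.57), PSAD-1 (0.96), PSAE-1 (0.94) and PSAF (0.78, edgeR adjusted p = 0.0457), and PSAF is the subunit that docks plastocyanin. The count rested on single libraries: it was 0 without CK 2, Ag+ 1 or Ag+ 2, 1 without AgNPs 2, 2 without Ag+ 3 or AgNPs 3, and 5 without AgNPs 1, each left out alone. In AgNPs, where 1.09% of all genes tested were called lower, 1 of 14 fell (median log2 -0.05), the ferredoxin FD1 (-0.76, edgeR adjusted p = 0.0278). The count was 0 without any 1 of CK 2, CK 3 or the AgNPs libraries. With the heat shock covariate, 7 of 14 were called in AgNPs against CK, in a fit that called 1121 of all genes there. These 7 are not split here into rises and falls. Between AgNPs and Ag+, 0 of 14 were called (median log2 -0.36), with 2 at an unadjusted p under 0.05, 1 called by DESeq2 and 0 by limma-voom. Over all 19889 genes tested, 2947 had such a p, DESeq2 called 845 and limma-voom 50. The light-harvesting gene LHCB3 was the 1 of 6 leaf markers called in Ag+, where it rose by log2 1.83, and this call was lost without CK 2, Ag+ 1 or Ag+ 2, each left out alone. Summed over the 14, CK libraries had 10041 to 14006 CPM, Ag+ libraries 17361 to 19307, and AgNPs libraries 12896 to 16953. No Ag+ library overlapped CK in this sum.

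**Figure D5:**
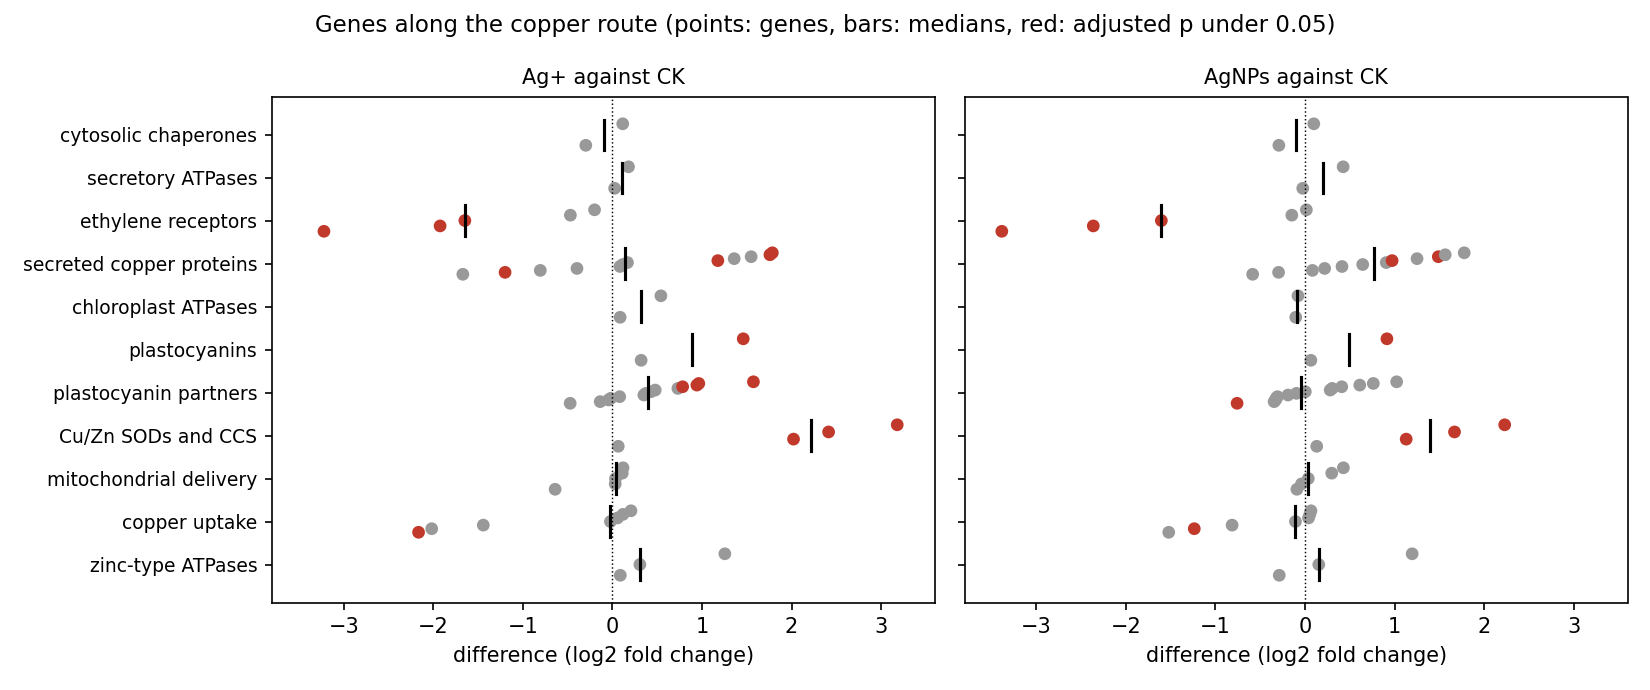
Log2 fold change against CK of the genes tested in each list along the copper route, for Ag+ and AgNPs; points are genes and bars mark list medians. The superoxide dismutase list (medians 2.22 and 1.40) and the ethylene receptors (-1.65 and -1.60) lie farthest from 0.

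Other lists were read for cells and states that could differ between the libraries. Of all genes tested, edgeR called 5.57% in Ag+ and 3.32% in AgNPs against CK. Of 19889 genes, 3827 in Ag+ and 3374 in AgNPs had an unadjusted p under 0.05 against CK, and 2947 between AgNPs and Ag+. DESeq2 called 1885, 1425 and 845 genes in these 3 comparisons, and limma-voom 1015, 639 and 50. Of 13 tested root markers 0 were called against CK (median log2 -0.39 in Ag+ and 0.79 in AgNPs), with 0 and 1 at an unadjusted p under 0.05 and 0 called by DESeq2 or limma-voom. Of 3 tested seed markers 2 rose in Ag+ (CRA1 and OLEO1, of seed storage) and 1 in AgNPs (CRA1). Both counts were 0 with limma-voom, and DESeq2, which tested more of the 6 listed, called 4 and 2. With single libraries left out, the Ag+ count fell to 0 (CK 1 or CK 2 left out) or 1 (AgNPs 2, Ag+ 1 or Ag+ 2) or went up to 3 (AgNPs 1) or 4 (Ag+ 3), and the AgNPs count was 1 without Ag+ 2 or Ag+ 3 and 0 without any other single library. The 6 seed markers summed to at most 1.07 CPM in any CK library, at least 3.81 in any Ag+ library and at least 5.81 in any AgNPs library. Of 16 tested heat shock genes 1 was called in Ag+, HSFA7A, a heat shock factor, which fell (log2 -1.44; list median -1.40). In AgNPs 0 were called by edgeR, 1 by DESeq2, 0 by limma-voom and 5 had an unadjusted p under 0.05, with a median log2 of 1.22. Without CK 3 and AgNPs 1 together edgeR called 12, in a fit that called 1603 of all genes. Between AgNPs and Ag+ the median log2 was 2.81, and 15 of 16 had an unadjusted p under 0.05; edgeR called 1 (HSFA7A, higher in AgNPs by log2 1.07), DESeq2 7 and limma-voom 0. In this comparison the heat shock covariate took PETE1 from log2 -0.55 to 0.002 and PAA2 from -0.65 to -0.29. The heat shock sums of these groups did not overlap, at most 382 CPM in Ag+ and at least 459 in AgNPs. This fit therefore cannot separate the heat shock sum from the silver form. Of 8 tested senescence genes 1 rose (SAG13) and 1 fell (NAC6) in Ag+, and 1 fell (NAC6) in AgNPs. The part of these differences in the values of the 8 genes was not tested, and the heat shock covariate cannot settle it between the silver groups.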

How the data were processed

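TRIzol extraction, depletion of ribosomal RNA and paired-end sequencing of all libraries in 1 lane are stated per the labels' protocols, and they name no batch. HISAT2 and TAIR10 appear per the submitters' processing notes. What counted the reads, with which annotation and strand setting, is not given in the sources used here. Raw counts were deposited, whole numbers per gene without normalization, and no row stood for unassigned reads. Reads of near-identical copies may be split or dropped by such counting.

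The counts of all 9 libraries entered 1 fit of edgeR's quasi-likelihood test (edgeR 4.0.16, R 4.3.3, robust), with group as the only term, filterByExpr and TMM factors. The two-sided p was adjusted (Benjamini-Hochberg) over 19889 genes; genes under 0.05 were called. CPM used TMM-scaled library sizes. The SE was derived from the log2 fold change and its F statistic, and intervals use edgeR's degrees of freedom. Correlations used log2 CPM with a prior count of 2. The fit was tested on simulated data. Shares of counts used exact permutation tests. Alternatives were DESeq2 1.42.0 (also its size factors), limma-voom 3.58.1, upper-quartile factors, no filter, a replicate block, fits of the 6 libraries compared, left-out libraries and a heat shock covariate.

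All 8 members are named; from each list, called genes are named (at most the 4 with the largest change). Genes like a called member are the 3 with the highest Pearson r. The members and lists were chosen with earlier results of these data known. The labels do not say that the replicate numbers pair libraries. Deviations of same-numbered CK and Ag+ libraries from their group means correlated weakly (0.12, 0.19 and 0.23). Pairs with AgNPs ran from -0.21 to 0.12. Libraries with different numbers were not compared, so these values cannot show that the numbers pair libraries. The replicate block was therefore run only as an alternative. Replicate pairs differed beyond counting noise (chi-square per degree of freedom 8.99 to 64.2).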

Additional observations from a re-analysis of the deposited data

How the results depend on the processing

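Of 456 fold changes of the 8 genes under 19 alternatives, 406 kept direction and side of the threshold, 10 lost a call, 8 gained one, and 32 changed sign, none of them called in either fit. The cause of these shifts was not tested. Genes called in Ag+ against CK, 1108 as reported, numbered 1885 with DESeq2, 1709 with the heat shock covariate, 2003 without CK 3 and AgNPs 1, and 419 to 1372 without 1 library; of the 8 genes 2 were called with DESeq2 and with the replicate block (all libraries, or the 6 compared), and 1 to 2 without 1 library. For AgNPs against CK, the 660 became 1425 with DESeq2, 351 in the 6 libraries, 195 with the block there, 1121 with the covariate, 1603 without CK 3 and AgNPs 1, and 224 to 809 without 1 library; the 1 of 8 became 0 in the 6 libraries and without CK 3 and AgNPs 1, and 0 to 1 without 1 library. For AgNPs against Ag+, the 136 became 845 with DESeq2, 50 with limma-voom, 408 in the 6 libraries, 236 with the block, 357 with the block in the 6, 335 with the covariate, 1276 without CK 3 and AgNPs 1, and 0 to 444 without 1 library; of the 8 genes 1 was called with DESeq2, 2 without CK 3 and AgNPs 1 (PAA2 and PETE1), and 0 to 1 without 1 library.

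The PETE1 share was 2.459 percentage points higher in Ag+ than in CK, also with the replicate block, and 2.179 to 2.8 without 1 library. With the block its exact permutation p of 0.0278 was the smallest possible. A single share at that floor cannot pass after adjustment over 4 shares (0.111), so the lost call does not show a weaker difference. The PAA2 difference was 6.38 to 8.593 without 1 library. With the covariate, log2 differences changed sign for RAN1 (-0.077 in Ag+ and 0.10 in AgNPs against CK, 0.17 between silver groups), PAA2 in AgNPs against CK (0.11), and PETE1 (0.0019) and PETE2 (0.10) between silver groups. Without CK 3 and AgNPs 1 they did for PETE2 in AgNPs against CK (-0.18) and, between silver groups, for CCH (-0.073, and -0.0029 with no filter) and HMA5 (-0.10). ATX1 between silver groups was 0.016 in the 6 libraries and 0.0135 with the block there. Without 1 library, signs changed within -0.036 to 0.10 for RAN1 in Ag+ against CK, within -0.0007 to 0.17, -0.25 to 0.11 and -0.057 to 0.20 for ATX1, RAN1 and PETE2 in AgNPs against CK, and within -0.072 to 0.12, -0.12 to 0.056, -0.27 to 0.0845 and -0.10 to 0.44 for CCH, ATX1, RAN1 and HMA5 between silver groups. The block changed no other call of the 8. The fit with the block in 6 libraries was chosen after seeing the data. HMA5, at 74 to 150 counts, is the member that depth limits most.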

Other observations

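Some genes followed the uncalled members closely over the 9 libraries. Those outside the members had the highest r among 11729 genes, so their r is high by selection. They were looked up after their values were seen, and the points share depth and scaling. PAA2 ran with IREG3 (AT5G26820), named iron-regulated protein 3 in the annotation, a chloroplast metal transporter (Pearson r = 0.98). Next came AT1G76110 (0.98), and then AAE14, an acyl-activating enzyme of phylloquinone synthesis, the quinone cofactor of photosystem I (0.98). PAA1 ran with SCO3 (0.97), AT1G07728 (0.96) and TSO1 (0.93). Of the member pairs, RAN1 and HMA5 had the highest r (0.80). AgNPs 1, the library with the highest root marker sum, held the highest value of both (75.5 and 9.22 CPM). The part of that library in this r was not tested. Outside the members, the closest gene was SKP1 for CCH (0.96), AT1G18360 for ATX1 (0.86), SVL1 for RAN1 (0.92) and PSBQA for PETE2 (0.98). The 3 genes closest to HMA5 were AAP4, an amino acid permease (0.92), CPR5 (0.90) and, after these, ESB1, a dirigent protein of the root Casparian strip and 1 of the 18 root markers (0.90).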
